A study of Oryzias latipes with 4 samples.

Results

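Enzymes that make, convert or clear steroids, together with the cytochrome P450 genes, were followed in brain tissue of female medaka, a small freshwater fish. Members were the genes whose deposited protein description named a cytochrome P450, an aromatase, a hydroxysteroid enzyme, a 3-oxo-5-alpha-steroid enzyme, the steroidogenic acute regulatory protein, a steroid 17 enzyme or an estradiol 17-beta-dehydrogenase. This rule used no measured value, but it was set with earlier results of these data known. There were 53 such genes among 20898 named genes, and they took up 91 of the 93896 rows of the deposited table. All fish had been kept under short days. The short-day group (SD) stayed there, the long-day group (LD) was transferred, and tissue was taken from 6 fish per condition 16 h after the transition. Each sample was a block of ventral telencephalon, hypothalamus and pituitary, no genotype, strain or age is given, and there were 2 libraries per group, called SD 1, SD 2, LD 1 and LD 2. Coordinates are those of the deposited table, and the genome build behind them was not stated in any source used here. Which fish went into which library is not stated, and the spread among the 4 libraries may therefore be technical in part. The p-values rest on that spread and on variance estimated across all tested genes and features.

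Steroid hormones are made from cholesterol. The StAR protein brings cholesterol into mitochondria, a P450 cuts its side chain to give pregnenolone, and further P450s and hydroxysteroid dehydrogenases turn that into progestogens, androgens and corticosteroids. Aromatase then makes estrogens from androgens, and 5-alpha-reductases make the potent androgen dihydrotestosterone. In the teleost brain aromatase is known for its high activity in radial glial cells, which keep the form of the progenitor cells of the embryo. Other P450 families break down retinoic acid, drugs, pollutants and fatty acids, and most P450s outside mitochondria take their electrons from a single NADPH-dependent reductase.

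The libraries were alike in general. Values are in FPKM (fragments scaled to feature length and library size), and 1 fragment was worth least, and depth was therefore greatest, in SD 2, at 1.47 times the depth of SD 1, with LD 1 and LD 2 at 1.10 and 1.09 times. Pearson correlations across the 17030 genes and unnamed features tested were 0.981 within SD, 0.982 within LD and 0.978 to 0.982 between groups. Markers of the dissected block were present. Summed over 14 pituitary hormone and transcription factor genes the level was 7076 (SD 1), 7471.9 (SD 2), 4107 (LD 1) and 5621.7 (LD 2) FPKM. The largest part was prolactin-1 (LOC101172582), at 3900, 3743, 1825 and 3536 FPKM in that order, so the sum mostly follows a few hormone genes. Summed over 14 neuronal genes the level was 2527.4 to 2544.7 in SD and 2598.2 to 2626.9 in LD. Oligodendrocyte markers stood apart in LD 1, with a sum of 1581.3 FPKM against 774.4 to 1000.7 in the other libraries. The part of these marker differences in the members' values was not tested. In bulk tissue, fewer cells of a type and less RNA per cell cannot be told apart.

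Of the 53 members, 29 averaged at least 1 FPKM and were tested within a limma fit over all 17030 genes and features. None passed an adjusted p of 0.05, in either direction, and 1 of all 17030 (0.00587%) did, a pituitary hormone gene that is no member. At an unadjusted p under 0.05 there were 6 members of 29, where 6.34% of all genes and features reached that p. Of these, 3 were higher in LD (cyp1a, the P450 3A56 gene and cyp17a2; 2.55% of all) and 3 lower (cyp3a40, cyp11a and a P450 2K1 gene; 3.79% of all). The alternatives that kept all 4 libraries gave 5 to 7 members. The share of all genes and features at that p was not counted in them. The median log2 change of the 29 was -0.13, against -0.01 over all, with 18 members lower (53.7% of all) and 11 higher (46.3% of all). Both LD libraries lay below both SD libraries for 8 of the 29 (20.9% of all genes and features) and above for 3 (16.4% of all). All changes are on a log2(FPKM + 1) scale, on which changes of low genes come out too small.

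**Figure D1:**
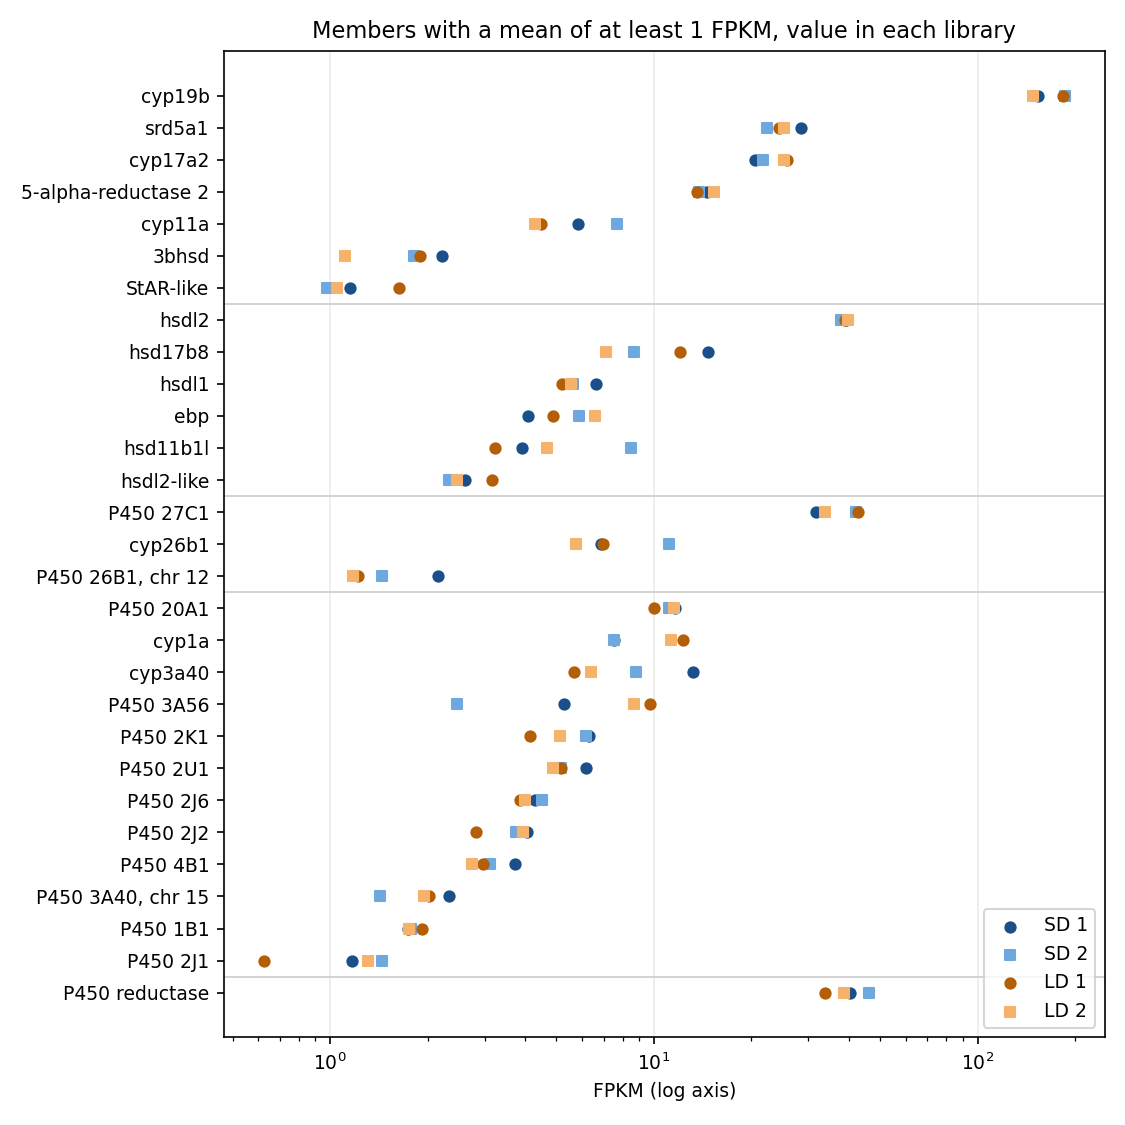
FPKM (log axis) of the 29 tested members in SD 1, SD 2, LD 1 and LD 2, with genes in blocks by role and ordered by mean within each. The brain aromatase cyp19b is the most abundant at 148 to 186 FPKM, the median of the members' means is 5.58 FPKM, and for 11 of the 29 the SD and LD points do not overlap (37.2% of all genes and features).

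Brain aromatase, the gene cyp19b, was by far the most abundant member. It stood at 154 (SD 1), 186 (SD 2), 183 (LD 1) and 148 (LD 2) FPKM. Each group held 1 high and 1 low library, so the groups overlapped fully. The log2 change was -0.04 with a standard error of 0.14 and a 95% interval of -0.40 to 0.33 (limma adjusted p = 0.975), and leaving out single libraries moved it between -0.19 and 0.12. The gene lies on chromosome 6 at 15393100 to 15397201 on the minus strand, with 9 coding segments. Its mean exceeded that of 97.9% of tested genes and features, and it alone made up 33.8% to 38.7% of the summed FPKM of all members in a library. Of its 2 rows, 1 of 2022 bases held the whole value and the other was listed at 0.

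Summed radial glial markers did not follow the libraries in the order of cyp19b, though LD 2 was lowest for both. Of 15 genes matched, 10 were tested, 7 of them higher and 3 lower in LD, with a median log2 change of 0.13 and none past the threshold. The summed level of the 15 was 2263.4 to 2304.3 FPKM in SD and 2102.8 to 2326.4 in LD. Single markers differed from the sum. The gene fabp7 was highest in LD 2, at 386.1 and 472.1 FPKM under SD versus 473 and 504.4 under LD. In contrast sox2 was at 170.8 and 144.5 FPKM under SD versus 127.6 and 131.8 under LD. A glial fibrillary acidic protein gene (LOC101173548) was at 66.3 (SD 1), 65.2 (SD 2), 85 (LD 1) and 65.6 (LD 2) FPKM, and another gene of that description (LOC101162850) was listed at 0 throughout. The part of these markers in the aromatase values was not tested. The ovarian type of aromatase (LOC101174651), the form known from the ovary, was nearly absent, at 0.0993 and 0.0616 FPKM in SD 1 and LD 1 and listed at 0 in SD 2 and LD 2.

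Among the enzymes that begin steroid synthesis, the side-chain cleavage gene cyp11a was lower in LD. It stood at 5.82 (SD 1), 7.71 (SD 2), 4.49 (LD 1) and 4.29 (LD 2) FPKM. The LD libraries were close to each other and both below the SD libraries, of which SD 2 was the higher. The mean was 6.76 ± 1.33 in SD and 4.39 ± 0.136 in LD (SD of the values, n = 2 each), 1.54 times as high in SD, with a log2 change of -0.52 and a standard error of 0.15. It did not pass over all genes (limma adjusted p = 0.782, unadjusted p = 0.0186), and the change was between -0.69 and -0.34 over the alternatives, with the smallest value without SD 2. The row lies on chromosome 6 at 16712661 to 16715507 (plus strand, 13 coding segments) and is 1978 bases long. Pituitary markers were also lower in LD, with 11 of 14 genes lower (53.7% of all) and a median log2 change of -0.59. None of them was listed at 0 throughout, and the part of these markers in the cyp11a values was not tested.

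The gene cyp17a2 had higher values in LD, with little spread within groups. In several fishes the enzyme it encodes has 17-alpha-hydroxylase activity with little of the lyase activity needed for androgens. It was at 20.5 (SD 1), 21.7 (SD 2), 25.8 (LD 1) and 25.1 (LD 2) FPKM. The groups did not overlap, and the gap between them was larger than the gap within either. The mean was 21.1 ± 0.824 in SD and 25.5 ± 0.491 in LD (n = 2 each), a ratio of 1.21, with a log2 change of 0.26 and a standard error of 0.07 (limma adjusted p = 0.782, unadjusted p = 0.0171). Overlaps of rows are given here for genomic spans, from first to last base, which may include introns. On chromosome 18 the cyp17a2 row spans 551864 to 561978 (minus strand). This span overlaps by 3271 bp that of an early growth response protein 4-like gene (LOC101157090) on the plus strand. That gene stood at 8.88 and 7.37 FPKM under SD versus 9.57 and 10.6 under LD, a log2 change of 0.29. The kit was stranded, but whether quantification used strand is not stated, and the part of shared reads was not tested.

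**Figure D2:**
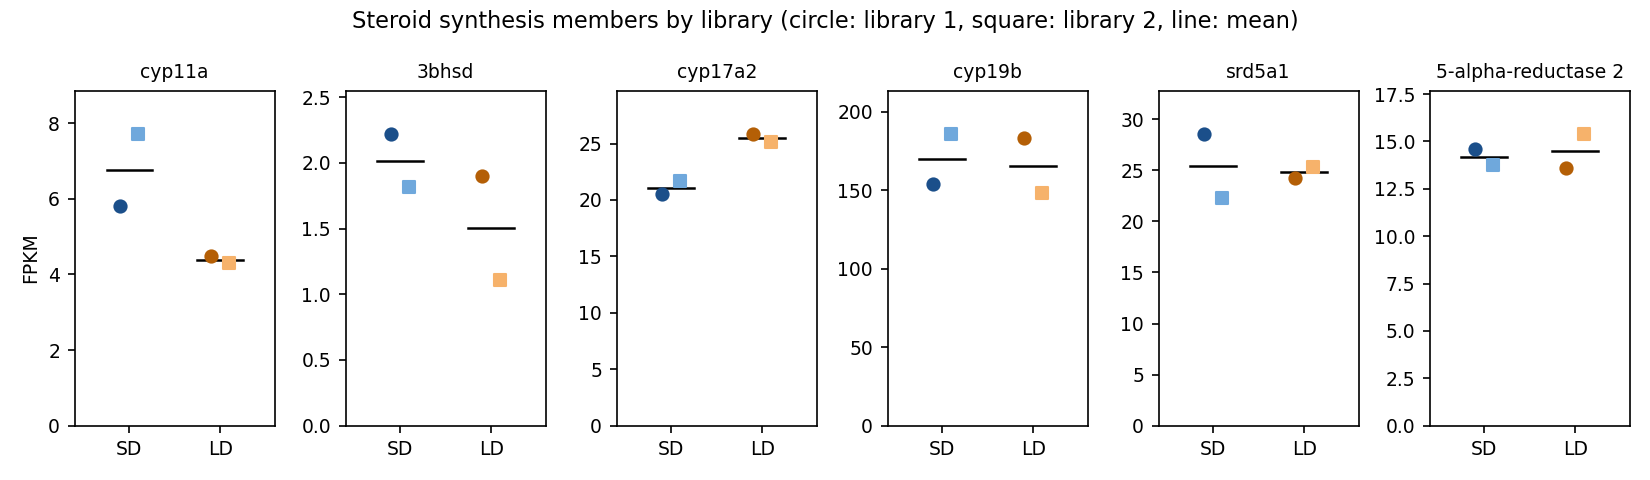
FPKM of 6 steroid synthesis genes in each library (circle for library 1, square for library 2, line for the group mean, vertical axes from 0 and different between panels). The LD libraries lie below the SD libraries for cyp11a and above them for cyp17a2, and the groups overlap for 3bhsd, cyp19b, srd5a1 and the 5-alpha-reductase 2 gene (LOC101156869).

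The other members described as 17-alpha-hydroxylase/17,20-lyase, 3-beta-hydroxysteroid dehydrogenase, StAR or P450 11-beta were at low levels or listed at 0. The step to testosterone is not covered by them, and hsd17b3, which is no member, was at 10.4 to 14.4 FPKM. The other 17-alpha-hydroxylase/17,20-lyase gene, cyp17, whose enzyme carries out the androgen-forming cleavage, stood at 1.35 and 0.571 FPKM under SD versus 0.714 and 0.488 under LD, below the filter, so cyp17a2 was 15.2 to 51.5 times as abundant per length. The 3-beta-hydroxysteroid dehydrogenase gene 3bhsd, which makes progesterone from pregnenolone, was at 2.22 and 1.81 FPKM under SD versus 1.90 and 1.11 under LD (log2 change -0.28, 95% interval -0.85 to 0.28). The change was -0.05 without LD 2, -0.51 without LD 1 and -0.19 without SD 1. All of its signal came from 1 short row of 443 bases, which held 11.8 to 26 fragments per library, and its other rows were listed at 0. Of the genes described as StAR, LOC101171949 stood at 1.155 and 0.98 FPKM under SD versus 1.63 and 1.05 under LD, where LD 1 was the high library, and star was lower still, at 0.392 and 0.158 FPKM under SD versus 0.284 and 0.0718 under LD. Genes described as 3-beta-hydroxysteroid dehydrogenase type 7, known in mammals for bile acid synthesis, were at 0.401 to 0.695 FPKM (LOC101172816) and 0.215 to 0.522 (LOC105356506). The P450 11-beta gene cyp11b, whose enzyme completes cortisol and 11-oxygenated androgens, was listed at 0 in all 4 libraries.

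The 5-alpha-reductases were more abundant and did not separate the groups. The type 1 gene srd5a1 was at 28.5 and 22.3 FPKM under SD versus 24.3 and 25.3 under LD, so both LD libraries lay between the SD libraries. Its log2 change was -0.02 (95% interval -0.36 to 0.31, limma adjusted p = 0.981). That value is a sum over 2 separate rows on chromosome 11, in library order one of 18.1, 14.3, 15.1 and 17.6 FPKM and the other of 10.4, 7.99, 9.15 and 7.70, and so it overstates the level of a single transcript. A type 2 gene (LOC101156869) stood at 14.6 and 13.8 FPKM under SD versus 13.6 and 15.4 under LD (log2 change 0.03, 95% interval -0.22 to 0.27), and a second (LOC100125532) at 0.313 to 0.654. Among the 14 genes of steroid synthesis 7 were tested, with a median log2 change of -0.02, 3 higher and 4 lower.

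Genes grouped by description as hydroxysteroid dehydrogenases, among them the isomerase gene ebp, spread as much within groups as between them. Of 8 genes 6 were tested, none differed between groups by more than within both (25% of all genes and features did), none had an unadjusted p under 0.05, and the median difference within a group was 0.32 in SD and 0.31 in LD on the log2 scale, against 0.13 and 0.12 over all genes and features. The most even member of all was hsdl2, which encodes a peroxisomal hydroxysteroid dehydrogenase-like protein, at 39.3 (SD 1), 37.9 (SD 2), 38.8 (LD 1) and 39.9 (LD 2) FPKM. Its 95% interval was narrow, from -0.15 to 0.20. In contrast hsd17b8, whose human form oxidises estradiol and takes part in mitochondrial fatty acid synthesis, was at 14.7 and 8.68 FPKM under SD versus 12.1 and 7.12 under LD. The libraries numbered 1 were high and those numbered 2 low in each group, numbers that are only labels, and the 95% interval was -1.08 to 0.56.

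The gene hsd11b1l, related to the enzyme that regenerates cortisol, had a group difference that rested on 1 library. It stood at 3.91 (SD 1), 8.48 (SD 2), 3.24 (LD 1) and 4.69 (LD 2) FPKM. Only SD 2 was high. The log2 change was -0.47 (95% interval -1.36 to 0.41, limma adjusted p = 0.835) and 0.00 without SD 2. The excess of SD 2 was present in both rows of the gene, which lie on chromosome 4. In the same library order, one row had 2.89, 6.53, 2.19 and 3.59 FPKM and the other 1.02, 1.95, 1.05 and 1.10. The genomic span of the former row overlaps by 697 bp that of the gene c4h19orf70 on the opposite strand. In that order c4h19orf70 stood at 20.18, 20.16, 19.82 and 22.25 FPKM, and the part of shared reads was not tested. The genes hsdl1 (5.185 to 6.63 FPKM) and ebp (4.07 to 6.55) gave log2 changes of -0.16 and 0.17, the latter encoding an isomerase of cholesterol synthesis that the word hydroxysteroid in its name brought in. For hsdl1 both LD libraries lay below both SD libraries (20.9% of all genes and features), and for ebp the groups overlapped. The estrogen-activating enzyme gene hsd17b1 was listed at 0 in all libraries but SD 2, where its 0.0276 FPKM is the worth of about 1 fragment, and hsd17b14 was listed at 0 in all.

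Of the P450 26 genes, whose enzymes break down retinoic acid, cyp26b1 was highest in SD 2. Summed over its rows it stood at 6.88 and 11.1 FPKM under SD versus 6.96 and 5.75 under LD, so SD 1 and LD 1 were nearly equal. Its longest row, with 72.8% of the summed FPKM, was at 4.90 and 7.74 under SD versus 5.61 and 4.12 under LD. The log2 change was -0.42 (95% interval -1.003 to 0.17, limma adjusted p = 0.8), and over the alternatives it lay between -0.73 without SD 1 and -0.10 without SD 2. A second gene described as P450 26B1, LOC101158370 on chromosome 12, had its high library in SD 1 instead, at 2.14 and 1.45 FPKM in SD against 1.22 and 1.18 in LD. Its LD libraries were both below SD (limma adjusted p = 0.809), with a log2 change of -0.34 that was -0.15 without SD 1 and -0.52 without SD 2. The genes cyp26a1 (0.431 to 0.550 FPKM) and P450 26C1 (LOC101163759, 0.0905, 0.238 and 0.109 FPKM in SD 1, SD 2 and LD 1 and listed at 0 in LD 2) were below the filter.

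A P450 27C1 gene, LOC101157281, had the highest mean of the members after cyp19b, the reductase and hsdl2. In zebrafish the enzyme of this name converts vitamin A1 to vitamin A2, which shifts photoreceptors towards red light. It stood at 31.7 and 42.1 FPKM under SD versus 42.6 and 33.7 under LD. As with cyp19b, SD 2 and LD 1 were the high libraries, and the groups overlapped (log2 change 0.05, 95% interval -0.40 to 0.50). Its row lies on chromosome 3 at 14797355 to 14806051, plus strand, and a second gene of that description on chromosome 21 (LOC101156051) was at 0.345 to 0.827 FPKM.

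The lowest unadjusted p-values belonged to cyp1a, the P450 3A56 gene and cyp3a40, of P450 families known for metabolism of foreign compounds. Such families did not stand out by count. An unadjusted limma p under 0.05 was reached by 4 of 12 tested genes of families 1 to 4 and 20, and by 2 of 7 of steroid synthesis. The gene cyp1a encodes the enzyme that the aryl hydrocarbon receptor switches on. It was at 7.52 FPKM in each SD library, at 12.3 in LD 1 and at 11.3 in LD 2. Both LD libraries were above SD, by far more than the libraries of a group differed. The mean was 7.52 ± 0.00309 in SD and 11.8 ± 0.705 in LD (n = 2 each), a ratio of 1.57, with a log2 change of 0.59 and a standard error of 0.09. The spread of 0.00309 comes from 2 nearly equal values and is no measure of the precision of the level. Its unadjusted p of 0.00138 ranked 39 among the 17030, and it did not pass (limma adjusted p = 0.6, range 0.477 to 0.948 over the alternatives). The change stayed between 0.53 and 0.64 in all 14 alternatives that keep the gene as a unit. The gene lies on chromosome 3 at 31249282 to 31263041, minus strand, and its row with signal held about 308.3 to 555.2 fragments per library.

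For the other genes of that pathway listed here the groups overlapped. The part of the pathway in the cyp1a values was not tested. Those described as the aryl hydrocarbon receptor were at 4.77 and 5.76 FPKM under SD versus 5.60 and 6.91 under LD (ahr), 2.74 and 4.22 against 3.40 and 2.89 (LOC101174729), and 1.004 and 0.615 against 0.723 and 0.923 (LOC101170311). The repressor ahrr was at 0.786 and 1.02 FPKM under SD versus 0.887 and 1.05 under LD. Like LOC101170311, it averaged below the filter and was not tested. A second P450 1A1 gene on chromosome 9 (LOC101158704), also below the filter, was at 0.740 and 0.565 FPKM under SD versus 0.571 and 0.280 under LD. The P450 1B1 gene (LOC101159216) was at 1.74 to 1.93 FPKM in all 4.

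**Figure D3:**
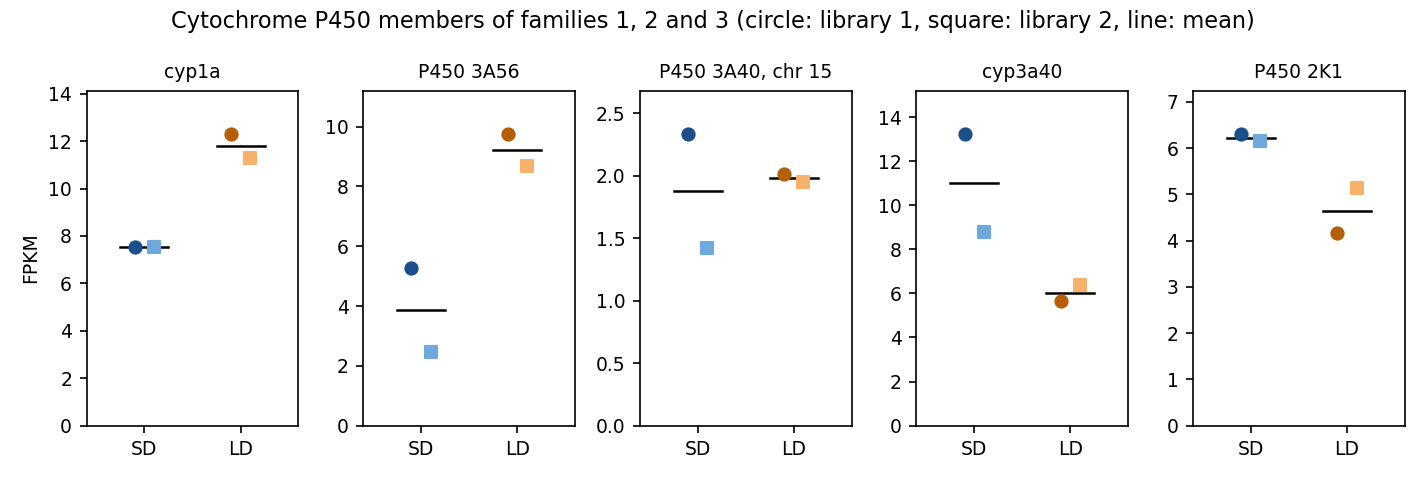
FPKM of 5 P450 genes in each library (circle for library 1, square for library 2, line for the group mean, vertical axes from 0 and different between panels). LD lies above SD for cyp1a and the P450 3A56 gene, below it for cyp3a40 and the P450 2K1 gene, and within the SD values for the P450 3A40 gene on chromosome 15.

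Genes of the P450 3A family, whose enzymes in mammals hydroxylate steroids and many drugs, differed in the sign of their change, though none passed the test. The P450 3A56 gene (LOC101155293) had the largest change of any tested member. It stood at 5.29 and 2.46 FPKM under SD versus 9.75 and 8.68 under LD. Both LD libraries were above SD, and SD 2 was well below SD 1. The mean was 3.87 ± 1.995 in SD and 9.21 ± 0.753 in LD (n = 2 each), 2.38 times as high, with a log2 change of 1.13 and a standard error of 0.29 (limma adjusted p = 0.782, unadjusted p = 0.0116). Only 0.44% of tested genes and features had a change at least as large in either direction. The change was 0.70 at the lowest and 1.56 at the highest over the alternatives, and those ends came from leaving out SD 2 and SD 1.

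The gene cyp3a40 was lower in LD. It was at 13.2 and 8.79 FPKM under SD versus 5.65 and 6.40 under LD. The LD libraries were close together and below both SD libraries. The mean was 11 ± 3.13 in SD and 6.02 ± 0.531 in LD (n = 2 each), 1.83 times as high in SD, with a log2 change of -0.75 and a standard error of 0.20 (limma adjusted p = 0.782, unadjusted p = 0.0124). Within a library the P450 3A56 gene therefore had 0.4 and 0.28 times the level of cyp3a40 in SD 1 and SD 2, but 1.73 and 1.36 times in LD 1 and LD 2. Without SD 1 the change of cyp3a40 was -0.48. These genes had the largest rise and the largest fall of the tested members, so the ratio only restates their changes. The difference between the changes of these genes was not tested.

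The P450 3A genes sit in separate pairs. The P450 3A56 gene and a further P450 3A40 gene, LOC101158047, are neighbours on chromosome 15 within 37044 bp (15604542 to 15641585), both on the minus strand with 13 coding segments. The neighbour was at 2.33 and 1.42 FPKM under SD versus 2.01 and 1.95 under LD (log2 change 0.07, 95% interval -0.46 to 0.61). SD 2 was the low library of both neighbours. On chromosome 1, cyp3a40 lies beside cyp3a within 32865 bp, and cyp3a was listed at 0 in all libraries but SD 2, where it was at 0.697 FPKM. Sequences of the genes of this family were not compared. Any reads the genes share may have been split between them in quantification, so the single values are uncertain to that extent.

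The 5 tested members of P450 family 2 had lower means in LD by small amounts, where 53.7% of all genes and features were lower, and 3 of the 5 lie in 1 cluster. A P450 2K1 gene on chromosome 8 (LOC101174506) stood at 6.30 and 6.15 FPKM under SD versus 4.16 and 5.14 under LD. Its groups did not overlap (log2 change -0.36, standard error 0.13, limma adjusted p = 0.783, unadjusted p = 0.0383), and the change was -0.23 without LD 1. In mammals family 2J enzymes form epoxides of arachidonic acid. On chromosome 4 some of the family 2J genes and cyp2p3 form the longest cluster of members, 5 genes within 62589 bp (26660349 to 26722937). Of these, 3 were tested and had log2 changes of -0.13 (LOC101156965), -0.18 (LOC101157767) and -0.25 (LOC105353996). For the last of these LD 1 was the low library, at 0.625 FPKM against 1.17 to 1.45 in the others. The genomic spans of the rows of the first and second overlap by 366 bp on opposite strands. The row of the first also spans that of LOC101160974, a further gene of the cluster on the same strand. LOC101160974 was at 0.0217 FPKM in SD 1 and listed at 0 elsewhere. The part of shared reads was not tested. The P450 2U1 gene (LOC101167098), whose human form oxidises fatty acids, was at 6.16 and 5.16 FPKM under SD versus 5.18 and 4.88 under LD.

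The remaining tested P450s differed little. The P450 20A1 gene (LOC101165867), an orphan enzyme of unknown substrate, was at 11.6 and 11.1 FPKM under SD versus 9.98 and 11.6 under LD, and the P450 4B1 gene (LOC101165838) at 3.73 and 3.12 under SD versus 2.97 and 2.75 under LD. The groups overlapped for the first, and both LD libraries were below SD for the second. Their 95% intervals were -0.34 to 0.19 and -0.56 to 0.17. Over the 24 genes of families 1 to 4 and 20, 12 were tested, with a median log2 change of -0.14, 4 higher and 8 lower.

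NADPH-cytochrome P450 reductase (LOC101166486), which passes electrons to P450s of the endoplasmic reticulum, was the second most abundant member when rows were summed. It was at 40.3 and 46.1 FPKM under SD versus 33.8 and 38.5 under LD. The LD libraries were below both SD libraries, with a log2 change of -0.25 and a 95% interval of -0.52 to 0.02 (limma adjusted p = 0.784). The change was -0.15 without SD 2 and -0.16 without LD 1. Of the value in SD 2, 5.76 FPKM came from a row of 261 bases that was listed at 0 in the other 3 libraries. On the longest row alone the values were 40.3, 40.3, 33.8 and 38.5 FPKM and the log2 difference was -0.16. The rank of the gene above hsdl2 (37.9 to 39.9 FPKM) thus rests on the row of 261 bases.

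**Figure D4:**
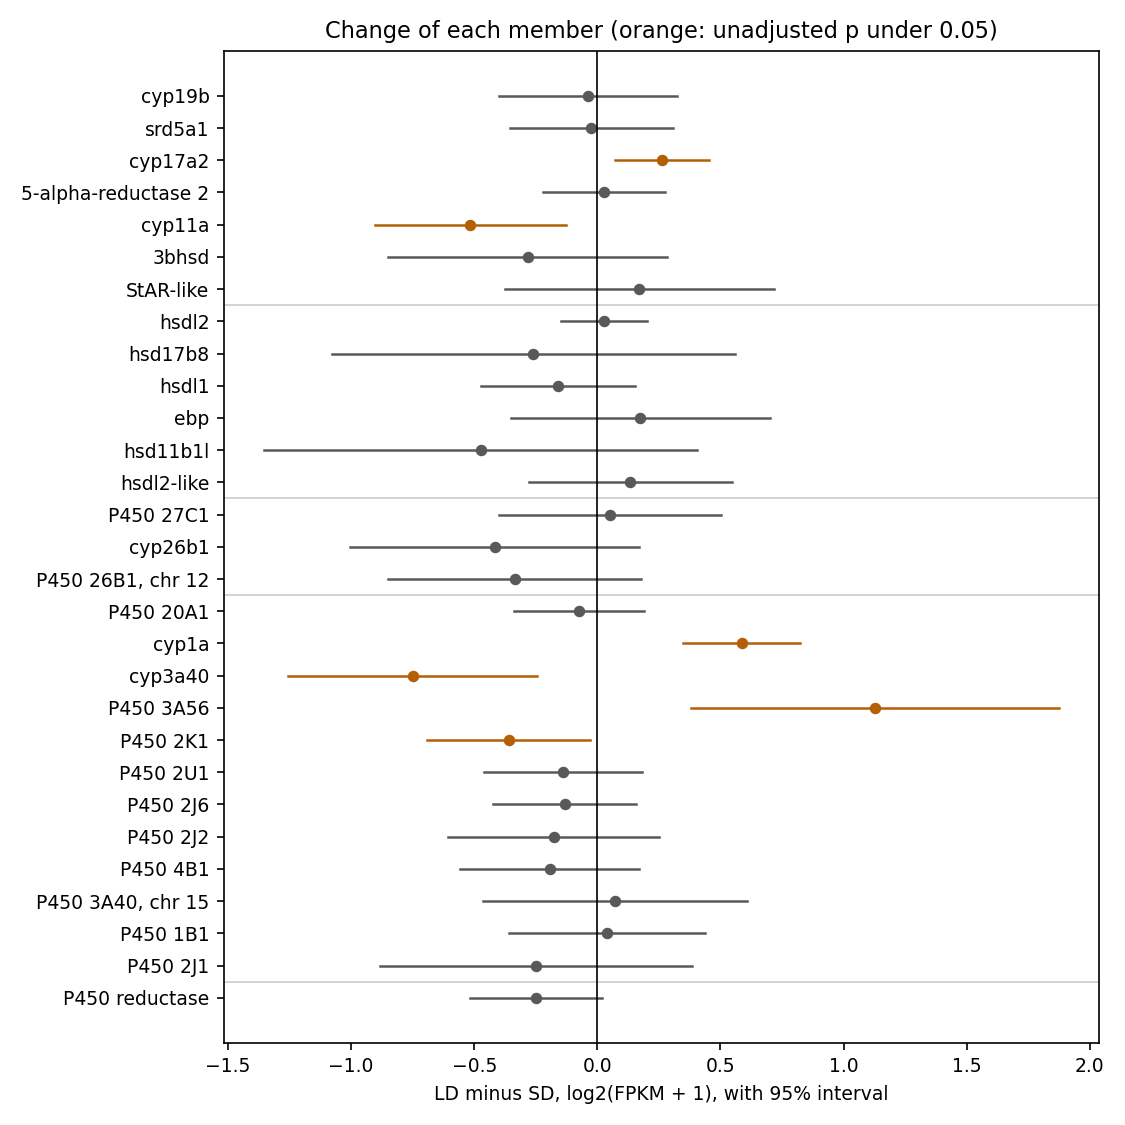
Log2 change from SD to LD of the 29 tested members with its 95% interval, in the order of the plot of values by library. The 6 orange members have intervals that leave out 0 (cyp17a2, cyp1a and the P450 3A56 gene above it, cyp11a, cyp3a40 and the P450 2K1 gene below it), and none of them passed after adjustment over all genes and features.

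Of the 24 members below the filter, 3 were listed at 0 in all libraries (cyp11b, hsd17b14 and the P450 2J6 gene LOC101169416), 6 were listed at 0 in some, and 15 were above 0 in all. The highest of them was a P450 4B1-like gene (LOC101169314) at 1.58 and 0.883 FPKM under SD versus 0.760 and 0.288 under LD, with a mean of 0.879, and the lowest inside the filter was the P450 2J1 gene with a mean of 1.14. A P450 2F3-like gene (LOC101156755) was at 0.242 and 0.528 FPKM under SD versus 0.662 and 0.704 under LD. No test was made on these genes in the main analysis.

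Partners of these enzymes were examined as a list of redox partners, cholesterol carriers, conjugating enzymes and regulators. Of 62 genes 48 were tested, 20 were higher and 28 lower in LD, with a median log2 change of -0.04, and none passed the adjusted threshold. An unadjusted p under 0.05 was reached by 3 of the 48, a share close to the 6.34% of all genes and features, so this count sets the list apart in no way, and the 3 are given as values. The lowest p belonged to fdxr, the reductase that feeds electrons to mitochondrial P450s such as the side-chain cleavage enzyme. It stood at 14.4 and 16.0 FPKM under SD versus 19.2 and 21.9 under LD, with no overlap (log2 change 0.41, limma adjusted p = 0.782, unadjusted p = 0.0105). Its electron acceptor fdx1 was at 15.8 and 15.9 FPKM under SD versus 14.9 and 15.5 under LD, and cyp11a itself was lower. The other 2 were conjugating enzyme genes. A UDP-glucuronosyltransferase 2C1-like gene (LOC101173361) was at 6.64 and 6.55 FPKM under SD versus 8.15 and 8.67 under LD, and a sulfotransferase 2B1-like gene (LOC101174401) at 15.02 and 14.5 under SD versus 12.9 and 9.75 under LD (limma adjusted p = 0.782 and 0.783).

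Several enzymes of steroid and sterol metabolism are filed under other names and so are not members. Of 23 such genes, listed by description after the table had been opened, 14 were tested and none passed the threshold. Of the 14, 3 were higher (46.3% of all genes and features) and 11 lower (53.7% of all). An unadjusted limma p under 0.05 was reached by 1 higher gene (2.55% of all) and 1 lower gene (3.79% of all). The gene hsd17b3, which makes testosterone, was at 13.3 and 14.4 FPKM under SD versus 12.1 and 10.4 under LD (limma adjusted p = 0.783). The cortisol-inactivating enzyme 11-beta-dehydrogenase isozyme 2 (LOC100125474) was at 5.77 and 4.28 FPKM under SD versus 3.24 and 3.87 under LD (limma adjusted p = 0.784). A very-long-chain 3-oxoacyl-CoA reductase gene (LOC101163971), of the hsd17b12 type, was at 24.3 and 21.4 under SD versus 27.5 and 28.9 under LD (limma adjusted p = 0.782). Another gene of that description (LOC101160884) was at 31.6 and 30.7 under SD versus 29.8 and 35.3 under LD, with the groups overlapping. The gene for cholesterol 24-hydroxylase (LOC101165021), which starts the removal of cholesterol from the brain, was at 6.04 to 6.87 FPKM, and that for 25-hydroxycholesterol 7-alpha-hydroxylase (LOC101173499) at 12.6 and 16.3 under SD versus 15.1 and 13.2 under LD, with the groups overlapping for both.

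**Figure D5:**
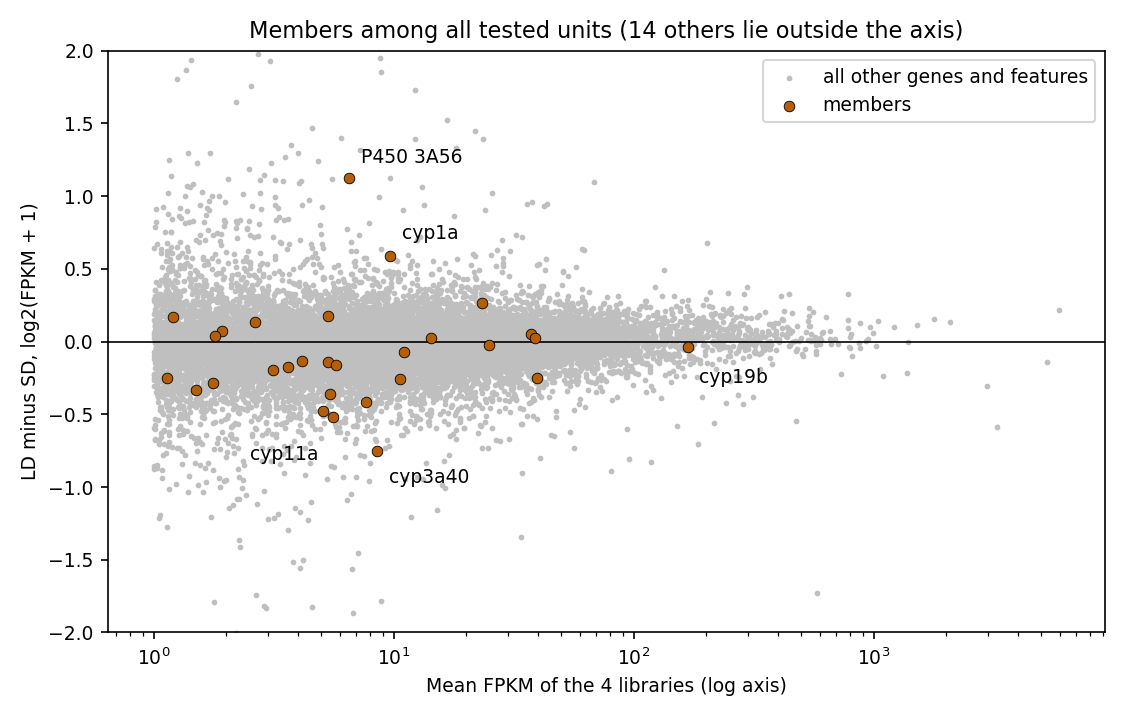
Log2 change from SD to LD against mean FPKM (log axis) for the 29 tested members and all other tested genes and features, of which 14 lie outside the vertical range shown. The members are spread through the cloud, with the P450 3A56 gene (1.13) and cyp1a (0.59) on its upper side, cyp3a40 (-0.75) and cyp11a (-0.52) on its lower side, and cyp19b (-0.04) near 0.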

How the data were processed

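RNA from female medaka brain blocks was sequenced from 2 libraries per group made with a stranded mRNA kit, per the labels' protocols. The submitters' processing notes name HISAT2 2.0.5 and StringTie 1.3.3b. The deposited table gives FPKM, a normalized unit computed by the authors, for 93896 rows with the gene and protein description of each row's best database match; genome build and annotation are not given in the sources used here. Rows sharing a gene name were summed, which can overstate the level of a single transcript, and unnamed features stayed single. All 20915 gene IDs matched a RefSeq table (assembly ASM223467v1), used for synonyms only. Values were transformed to log2(FPKM + 1), and LD was compared with SD by limma 3.58.1 in R 4.3.3 with group as the only term and a mean-variance trend, over units with a mean of at least 1 FPKM, with p-values from both tails, adjusted by Benjamini-Hochberg over all 17030 (threshold 0.05). An exact permutation test of 2 against 2 libraries cannot go below p = 0.333 and was not used. The fit was tested on simulated data.

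Depth was read from the smallest common step of FPKM times length in each library. Between 6.71% and 6.99% of the values above 0 lay below that step, so whole reads were not recovered and fragment numbers are approximate. Genes named in the text were the 8 tested members with the smallest p, the 8 with the highest mean, a set of steroidogenic and retinoid enzymes whatever their result, and the 3 partner genes with the smallest p. Other members are named as examples chosen after their values were seen. The members and lists were chosen with earlier results of these data known. Alternatives changed the pseudocount, the filter, the variance model, the scaling, the summing of rows, the matches used, the replicate block and the libraries included. No sequence is printed, since none was used here.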

Additional observations from a re-analysis of the deposited data

How the results depend on the processing

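No member passed the adjusted threshold under any of 15 alternatives, and the lowest adjusted p of any named member in any of them was 0.22 (limma). The number of all genes and features called, 1 as reported, was 0 with no filter, 0 with no variance trend, 7 with rows not summed, 2 with overlapping matches only and 0 to 4 when single libraries were left out (4 without SD 2, 2 without LD 1); the cause was not tested. The median log2 change of the members lay between -0.16 and -0.06. Members with an unadjusted p under 0.05, 6 as reported, numbered 5 to 7 in the alternatives that kept all 4 libraries. The share of all genes and features at that p was not counted there. Of 18 named members tested, 11 kept their sign in every alternative and 7 did not. Over single libraries left out, those 7 ranged from -0.15 to 0.25 (LOC101157281), -0.20 to 0.15 (srd5a1), -0.056 to 0.11 (LOC101156869), -0.19 to 0.12 (cyp19b), -0.95 to 0.00 (hsd11b1l), -0.17 to 0.023 (LOC101165867) and -0.009 to 0.35 (LOC101171949). Replicate numbers are shared by the groups only as labels. Deviations of same-numbered libraries correlated at 0.0392, so the numbers were not taken to pair them, and a fit with the replicate number as a block called 0 genes and features and gave 7 members an unadjusted p under 0.05. With 2 libraries per group, intervals are wide: for cyp19b, changes of -0.40 to 0.33 lie within the 95% interval.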

Other observations

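Markers of further cell types in the block gave the sums below, and their part in the members' values was not tested. Of all genes and features tested, 46.3% were higher and 53.7% lower in LD. Endothelial markers (8 tested, 3 higher and 5 lower in LD) summed to 62.9 and 63.6 FPKM under SD versus 62.2 and 51.7 under LD. Microglial markers (10 tested, 2 higher and 8 lower) summed to 275 and 322.1 FPKM under SD versus 288 and 236.5 under LD. For 4 of the 10 both LD libraries lay below both SD libraries (20.9% of all), and for 1 above (16.4% of all). Those 4 were cd74 and complement C1q genes (LOC101157838, LOC101161146 and LOC101168703), while a further C1q gene (LOC101159074) overlapped. Erythrocyte markers (5 tested, all 5 higher) summed to 6172.8 and 8484.7 FPKM under SD versus 9261.8 and 7496.9 under LD. All 8 tested oligodendrocyte markers had higher means in LD, with LD 1 the high library. The oligodendrocyte sum was 1000.7 and 955.1 FPKM under SD versus 1581.3 and 774.4 under LD, so LD 2 was the lowest library.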
